A study of Mus musculus with 48 samples.

Results

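The genes described here encode the CSF1 receptor, RANK and the lymphotoxin β receptor with their ligands, signals known to keep sinus macrophages in lymph nodes. They were chosen by name: Csf1r with its ligands Csf1 and Il34, Tnfrsf11a (RANK) with its ligand Tnfsf11 (RANKL), and Ltbr with Lta and Ltb. All 8 were found among the 55487 genes of the deposited tables. On GRCm38 they are Csf1r (ENSMUSG00000024621) on chromosome 18, 61100598 to 61132149, plus strand; Csf1 (ENSMUSG00000014599) on chromosome 3, 107741048 to 107760469, minus strand; Il34 (ENSMUSG00000031750) on chromosome 8, 110741829 to 110805924, minus strand; Tnfrsf11a (ENSMUSG00000026321) on chromosome 1, 105780718 to 105847981, plus strand; Tnfsf11 (ENSMUSG00000022015) on chromosome 14, 78277445 to 78308043, minus strand. The lymphotoxin genes are Lta (ENSMUSG00000024402) on chromosome 17, 35203165 to 35205351, minus strand; Ltb (ENSMUSG00000024399) on chromosome 17, 35194439 to 35196320, plus strand; Ltbr (ENSMUSG00000030339) on chromosome 6, 125306571 to 125313885, minus strand. Each is annotated as a protein-coding gene, and Ltb and Lta lie close together.

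The CSF1 receptor is a tyrosine kinase on monocytes, macrophages and some dendritic cells, and most tissue macrophages need its ligand CSF1 or IL-34 to survive. RANK is a receptor of the TNF receptor family that acts through the adaptor TRAF6, is best known for osteoclast formation, and in mouse lymph nodes is bound by RANKL from stromal cells during the maintenance of sinus macrophages. The lymphotoxin β receptor is bound by a membrane trimer of lymphotoxin α and β, made mainly by lymphocytes, and drives non-canonical NF-κB signalling. Lymphotoxin from B cells is needed for subcapsular sinus macrophages in mice.

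RNA was sequenced from 4 myeloid populations of wild-type mice: medullary sinus macrophages (MSM), subcapsular sinus macrophages (SSM), migratory dendritic cells (mDC) and resident dendritic cells (rDC). Each population was sorted from digested nodes labelled lymph node (LN) or tumor-draining lymph node (TDLN), after PBS or cisplatin, a platinum drug that crosslinks DNA. The 16 groups held 3 libraries each, 48 in all, and the series' design text states that the mice carried tumors. Which tissue the LN nodes drained is not in the labels, nor is whether the 3 libraries of each group are from different animals, and the spread behind the p-values may thus be technical. In bulk RNA of sorted cells, fewer cells of a type and less RNA per cell cannot be told apart.

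Libraries held 6456456 to 10434248 counts in macrophages and 2002713 to 3842097 in 18 dendritic cell libraries, while the 6 libraries of mDC TDLN PBS and rDC LN PBS held 10733509 to 15481059. Levels are given as CPM, counts scaled to a common library total with TMM factors over the 24 libraries of each table, and macrophages and dendritic cells come from tables scaled separately, so no level is compared between them. In all, 4 macrophage libraries went against their labels, namely SSM TDLN CIS 3 and MSM TDLN CIS 1 (CIS, cisplatin) and, in LN PBS, number 2 of both cell types. Their correlation of log2 CPM with the libraries of their own label was 0.664 to 0.715, against 0.990 to 0.993 with those of the other macrophage label. Macrophage results are therefore given with and without these 4 libraries, and a name such as "MSM LN PBS 2" means the library so labelled. Without them each group that held 1 of them has 2 libraries. The 4 were picked by their expression in these same data. The spread fitted without them, and thus the p-values, are not an independent measure. The summed level of 8 sinus macrophage markers, Siglec1 among them, was 1541 to 1607 CPM in the 3 MSM LN CIS libraries and 8123 to 22657 CPM in the other 21 macrophage libraries. Siglec1, Mertk and Fcgr1 were at 0 in 2 of the 3 MSM LN CIS libraries, so these defining markers of the labelled type were all but missing there. All 8 T cell markers were detected in every macrophage group. Among dendritic cells rDC TDLN CIS 2 had the lowest correlations of log2 CPM within its group. They were 0.949 and 0.955 with rDC TDLN CIS 1 and 3, which correlated at 0.982 with each other.

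Csf1, Tnfrsf11a and Ltb, the members with the widest gaps between mDC and rDC below, are shown by the bases just before their first annotated transcript base, 5′ to 3′ on the gene's strand, from RefSeq GRCm38.p6. Promoters of 6 of the 8 members were in the table used. Capitals mark a match to the kappa-B consensus (Csf1 and Ltb) or to GAGGAA, a core bound by factors of the PU.1 type (Ltb). Both strands were searched.
Csf1 promoter (chr3:107760470-107760719, minus strand): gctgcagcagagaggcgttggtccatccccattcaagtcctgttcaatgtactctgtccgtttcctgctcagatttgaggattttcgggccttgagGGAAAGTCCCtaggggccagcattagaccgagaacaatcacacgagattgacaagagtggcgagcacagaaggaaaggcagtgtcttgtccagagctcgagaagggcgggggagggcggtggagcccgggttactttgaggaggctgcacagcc
Tnfrsf11a promoter (chr1:105780473-105780717, plus strand): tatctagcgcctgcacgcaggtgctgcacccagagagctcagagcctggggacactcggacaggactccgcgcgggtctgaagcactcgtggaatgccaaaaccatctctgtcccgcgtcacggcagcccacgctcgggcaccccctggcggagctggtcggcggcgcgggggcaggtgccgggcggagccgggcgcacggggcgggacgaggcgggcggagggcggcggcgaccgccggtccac
Ltb promoter (chr17:35194257-35194438, plus strand): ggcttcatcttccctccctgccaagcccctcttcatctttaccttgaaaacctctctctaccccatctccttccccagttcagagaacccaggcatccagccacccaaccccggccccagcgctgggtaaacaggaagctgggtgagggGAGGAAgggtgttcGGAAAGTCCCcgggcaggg
The kappa-B match of Csf1 lay at bases 97 to 106 of the printed stretch and that of Ltb at bases 164 to 173, both on the opposite strand, and no match overlapped another. GAGGAA stood at bases 150 to 155 of the Ltb stretch. The Tnfrsf11a stretch held neither, nor TATAAA, which occurred in the Lta promoter but in none of the 3 shown. Among 32851 promoters 7.25% held the kappa-B consensus, 23.3% GAGGAA and 12.4% TATAAA. A match describes letters in this window, not binding.

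mDC and rDC differed in most of the members. Csf1 and Tnfrsf11a were higher in mDC, and Csf1r, Ltb and Lta in rDC. A gene is called where edgeR's quasi-likelihood test gave an adjusted p under 0.05 (Benjamini-Hochberg over all genes tested). Averaged over the 4 conditions, 5 of 7 tested members differed between mDC and rDC, where 74.4% of all genes were called. Within LN PBS, LN cisplatin, TDLN PBS and TDLN cisplatin, 5, 7, 6 and 4 of 7 were called, against 66.6, 54.9, 72.4 and 56.1% of all genes. A share of members near that of all genes says nothing particular about the members. In mDC, where Tnfsf11 and Il34 were too low to test, cisplatin called 3 of 6 members in the TDLN (27.3% of all genes) and 3 in the LN (11%). TDLN against LN called 2 of 6 with PBS (29.1%) and 2 with cisplatin (14.8%), and the cisplatin effect differed between nodes for 2 (15.6%). In rDC, with 7 members tested, cisplatin called 1 in the TDLN (1.01%) and 2 in the LN (17.9%). Between nodes 3 were called with PBS (27%), 3 with cisplatin (14.8%) and 3 for the node difference (5.31%).

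In macrophages 7 members were tested and Il34 was too low. In MSM, cisplatin called 1 of 7 in the TDLN (37.1% of all genes) and 3 in the LN (43.4%), nodes differed for 2 with PBS (38.2%) and 2 with cisplatin (43.3%), and the cisplatin effect differed between nodes for 4 (40.7%). In SSM the counts were 1 (23%), 1 (13.3%), 2 (19.7%), 2 (17.4%) and 1 (21.6%) in the same order. Between MSM and SSM, 3 of 7 were called in LN cisplatin (49.7%), 0 in TDLN PBS (40.8%) and 3 on average (30.2%). In LN PBS and in TDLN cisplatin, the conditions that hold the 4 libraries, edgeR called 0 members and 0% of all genes. There 245 and 178 genes had an unadjusted p under 0.05, and DESeq2 called 2 and 0 genes. Leaving out the 4 libraries, picked by their expression, leaves 2 in each group that held 1 of them. Without the 4 libraries 31 of 35 member tests were called in each of MSM, SSM and the contrast between them. In MSM these were 5 of 7 for cisplatin in the TDLN (69%) and 6 in the LN (74%), 6 between nodes with PBS (69.7%), 7 with cisplatin (74.4%) and 7 for the node difference (65.1%). In SSM they were 7 (71.1%), 5 (60%), 7 (67.8%), 6 (61.9%) and 6 (65.8%) in that order. Between MSM and SSM they were 6 with PBS and 7 with cisplatin in the LN (62 and 72.4%), 5 with PBS and 6 with cisplatin in the TDLN (67.1 and 63.3%) and 7 on average (57.2%). Common coefficients of variation were 0.418 in MSM and 0.403 in SSM with all libraries, against 0.0625 in mDC and 0.105 in rDC.

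**Figure D1:**
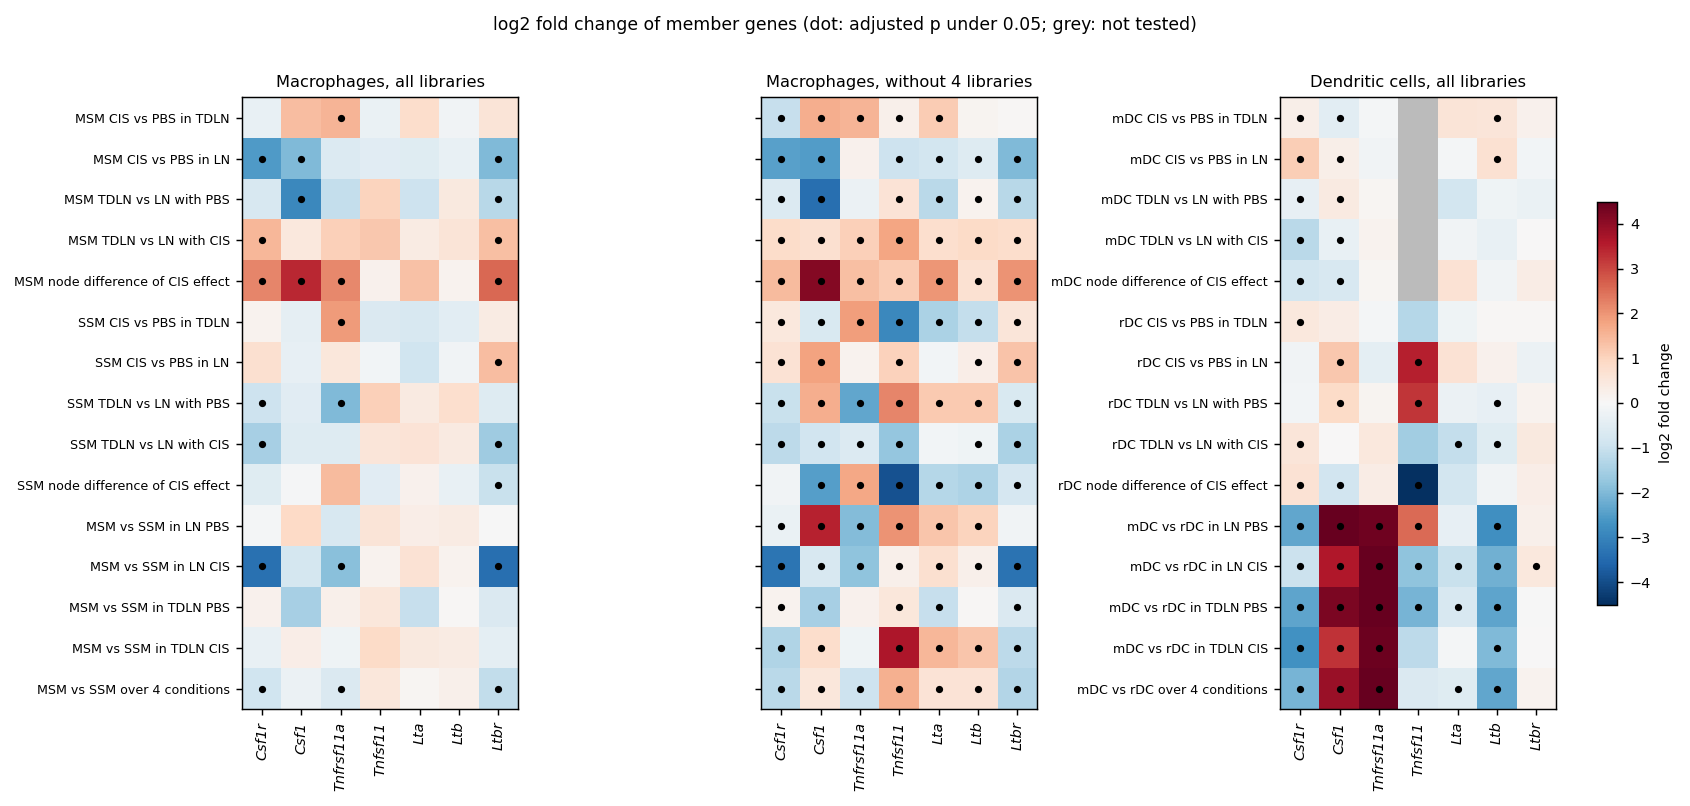
Log2 fold change of each member (columns) in each comparison (rows) as colour, clipped at 4.5 in either direction, for macrophages with all libraries, macrophages without the 4 libraries, and dendritic cells; a dot marks an adjusted p under 0.05 and grey a gene that was not tested. Between mDC and rDC, Csf1 and Tnfrsf11a are higher and Csf1r and Ltb lower in mDC in all 4 conditions, and in macrophages many more cells carry a dot without the 4 libraries.

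Csf1r was higher in rDC than in mDC, and cisplatin raised it in mDC of the LN and in rDC of the TDLN. In mDC its level was 68.5, 70.2 and 74.1 CPM in the 3 LN PBS libraries and 158, 143 and 173 CPM in the 3 LN cisplatin libraries. In the TDLN it was 67.6, 57.1 and 59.4 CPM with PBS and 76.9, 66.8 and 59.6 CPM with cisplatin. The LN cisplatin libraries stood above all other mDC libraries, mDC TDLN cisplatin overlapped both PBS groups, and LN PBS lay just above TDLN PBS without overlap. Cisplatin raised Csf1r 2.17-fold in mDC of the LN (log2 fold change 1.12 ± 0.10 SE, adjusted p = 4.39e-08). In the TDLN the call was narrow (0.27 ± 0.097, adjusted p = 0.0388) and was lost with the deep libraries thinned (0.22, adjusted p = 0.185), with DESeq2 (adjusted p = 0.137), without a filter on low counts (-0.0026) and without any 1 of mDC TDLN PBS 2 or 3, mDC TDLN CIS 1 or 2, mDC LN PBS 3, mDC LN CIS 1 (adjusted p = 0.0504 to 0.312). The cisplatin effect was smaller in the TDLN than in the LN (log2 difference -0.84 ± 0.14, adjusted p = 0.000229). TDLN was below LN with cisplatin (-1.21 ± 0.098, adjusted p = 4.42e-09) and by less with PBS (-0.37 ± 0.10, adjusted p = 0.00811), a call lost with thinning (-0.31, adjusted p = 0.0525), without a filter on low counts (adjusted p = 0.982) and without mDC LN PBS 3 (adjusted p = 0.0577). The summed sinus macrophage markers were also highest in mDC LN cisplatin, at 963 to 1018 CPM against 602 to 714 CPM in the other mDC groups. In mDC LN cisplatin 7 or 8 of the 8 markers were detected in each library, and their part in the result was not tested.

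In rDC Csf1r lay at 373, 339 and 363 CPM in LN PBS and at 309.6, 304 and 303 CPM in LN cisplatin. In the TDLN it was 332, 322 and 304 CPM with PBS and 436, 482 and 422 CPM with cisplatin. The highest of these, rDC TDLN CIS 2, is the library that stood apart from its group. The TDLN cisplatin libraries were the highest of all dendritic cells, followed without overlap by rDC LN PBS, then by rDC TDLN PBS and rDC LN cisplatin, which overlapped each other, and then by every mDC group. Cisplatin raised Csf1r in rDC of the TDLN (log2 fold change 0.48 ± 0.079 SE, adjusted p = 0.00304), where it was the 1 member called and 1.01% of all genes were. In the LN the change was not called (-0.16 ± 0.078, adjusted p = 0.163), but it was with DESeq2 (-0.27, adjusted p = 0.0022), without a filter on low counts (-0.46, adjusted p = 0.000379), with the compared libraries alone (adjusted p = 0.0145) and without rDC TDLN CIS 2 (adjusted p = 0.01). The cisplatin effect was larger in the TDLN (log2 difference 0.64 ± 0.11, adjusted p = 0.00153). TDLN exceeded LN with cisplatin (0.54 ± 0.079, adjusted p = 0.000199) but was not called with PBS (-0.11 ± 0.078, adjusted p = 0.331; 0.0371 as adjusted p with DESeq2, and -0.37, adjusted p = 0.00742, without a filter on low counts). Summed sinus macrophage markers in rDC were 2196 to 2434 CPM in TDLN cisplatin, 1711 to 1760.4 CPM in TDLN PBS, 2005 to 2112 CPM in LN cisplatin and 2621 to 2736 CPM in LN PBS, and their part was not tested.

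Averaged over the 4 conditions Csf1r was 4.28-fold lower in mDC (log2 fold change -2.10 ± 0.043 SE, adjusted p = 1.07e-26). The gap was smallest in LN cisplatin (-0.95 ± 0.083, adjusted p = 4.6e-11) and stood at -2.34 ± 0.091, adjusted p = 3.3e-19 in LN PBS, -2.38 ± 0.082, adjusted p = 1.21e-20 in TDLN PBS and -2.72 ± 0.091, adjusted p = 8.42e-21 in TDLN cisplatin. In each of the 4 conditions all 3 rDC libraries lay above all 3 mDC libraries.

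Csf1, the main ligand, went the other way. In mDC its level was 149.6, 138 and 165 CPM in LN PBS and 189, 176 and 189.8 CPM in LN cisplatin. In the TDLN it was 216, 225 and 233 CPM with PBS and 160.4, 143 and 138 CPM with cisplatin. TDLN PBS was the highest group and overlapped no other, and TDLN cisplatin overlapped LN PBS. Cisplatin lowered Csf1 1.40-fold in the TDLN (log2 fold change -0.48 ± 0.069 SE, adjusted p = 1.62e-05) and raised it slightly in the LN (0.25 ± 0.078, adjusted p = 0.0391). The rise was lost without any 1 of mDC TDLN PBS 2, mDC LN PBS 1 or 2, mDC LN CIS 1 or 3 (adjusted p = 0.0534 to 0.139), and with the 6 compared libraries alone (adjusted p = 0.0787). The cisplatin effect differed between nodes (log2 difference -0.74 ± 0.10, adjusted p = 3.23e-05). TDLN was above LN with PBS (0.41 ± 0.071, adjusted p = 0.000129) and below it with cisplatin (-0.32 ± 0.076, adjusted p = 0.00425). Without a filter on low counts the TDLN values moved to -0.76 for cisplatin and 0.77 between nodes with PBS, with calls of the same sign. mDC TDLN PBS is the group of deeper libraries in mDC, so its depth cannot be told apart from its node and treatment. With these libraries thinned the Csf1 calls in mDC held.

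In rDC Csf1 was low, with 6.39, 7.34 and 6.72 CPM in LN PBS, 13.4, 15.9 and 15.7 in LN cisplatin, 10.4, 12.7 and 13.2 in TDLN PBS and 14.6, 15.7 and 15.7 in TDLN cisplatin. The LN PBS libraries were below all others and both cisplatin groups overlapped. Cisplatin raised Csf1 2.31-fold in the LN (log2 fold change 1.21 ± 0.16 SE, adjusted p = 6.41e-05), or by 0.83, adjusted p = 0.00651 with the deep LN PBS libraries thinned. In the TDLN the value was 0.35 ± 0.17, adjusted p = 0.552. TDLN was above LN with PBS (0.88 ± 0.16, adjusted p = 0.000959), a call lost with thinning (0.51, adjusted p = 0.0661). The node difference of the cisplatin effect was called (-0.86 ± 0.23, adjusted p = 0.039) but fell away with thinning (-0.48, adjusted p = 0.344), with DESeq2 (adjusted p = 0.144), without a filter on low counts (adjusted p = 0.327), with the replicate block (adjusted p = 0.0557) and without any 1 of rDC TDLN PBS 2 or 3, rDC TDLN CIS 1 or 3, rDC LN PBS 1, 2 or 3, rDC LN CIS 1, 2 or 3 (adjusted p = 0.0553 to 0.109). Over the 4 conditions Csf1 was 14.9-fold higher in mDC than in rDC (3.89 ± 0.052, adjusted p = 2.26e-31), and in every condition all mDC libraries lay above all rDC libraries. The order of the 8 groups began with mDC TDLN PBS and mDC LN cisplatin, went on with mDC LN PBS and mDC TDLN cisplatin, which overlapped, and ended with rDC TDLN PBS and then rDC LN PBS.

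**Figure D2:**
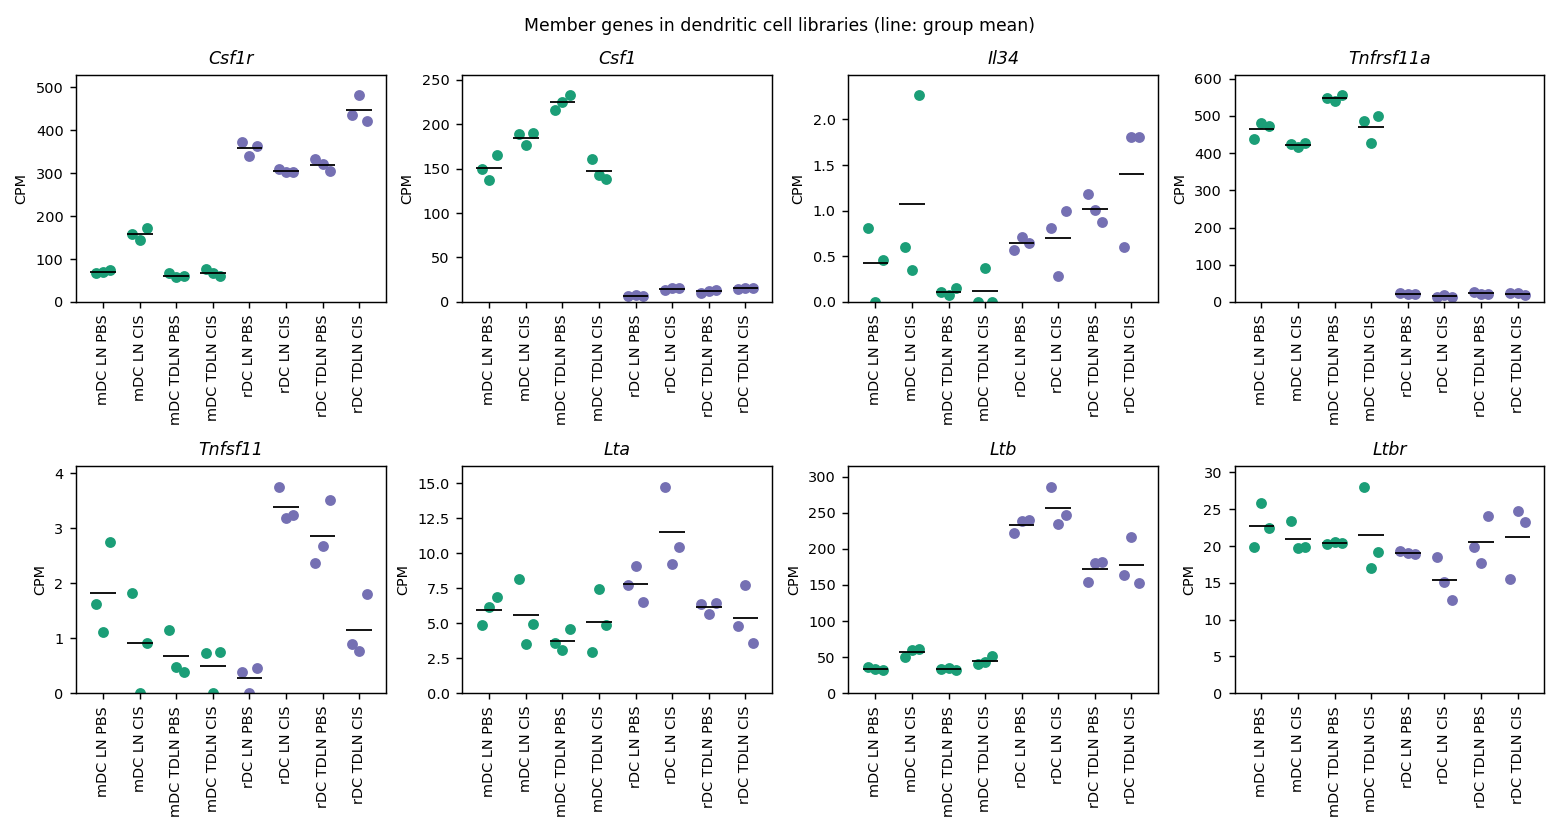
CPM of each member in each of the 24 dendritic cell libraries, 1 panel per gene and 1 column per group, with a point per library and a line at the group's mean. Tnfrsf11a and Csf1 are high in mDC (at least 416 and 138 CPM in every library), Csf1r and Ltb are high in rDC, and Il34 and Tnfsf11 stay under 4 CPM.

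In macrophages Csf1r was highest in SSM of the LN after cisplatin and lowest in MSM of the LN after cisplatin. MSM LN held 1155, 1401 and 1175 CPM with PBS and 212, 202 and 225 CPM with cisplatin. SSM LN held 1448, 1138 and 1358 CPM with PBS and 2170.1, 2183 and 2150.0 CPM with cisplatin. With cisplatin the MSM and SSM libraries of the LN did not overlap each other or any other macrophage group, while MSM and SSM overlapped in LN PBS. In the TDLN, MSM held 800.1, 733 and 775 CPM with PBS and 1049, 370.5 and 374 with cisplatin, and SSM 613, 711 and 718 and 958, 948 and 378. All 4 TDLN groups overlapped along their order, and the libraries labelled MSM TDLN CIS 1 and SSM TDLN CIS 3 stood apart from their own groups.

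Cisplatin lowered Csf1r 5.85-fold in MSM of the LN (log2 fold change -2.55 ± 0.35 SE, adjusted p = 0.000366), and without the 4 libraries the value was -2.45 ± 0.055, adjusted p = 1.91e-17. The sinus macrophage markers moved with this fall, from 12504 to 12925 CPM summed in MSM LN PBS to 1541 to 1607 CPM, and summed B cell markers reached 4757 to 4905 CPM in MSM LN cisplatin; their part in the result was not tested. In MSM of the TDLN Csf1r was not called (-0.35 ± 0.34, adjusted p = 0.453) but was lower without the 4 libraries (-1.02 ± 0.057, adjusted p = 2.42e-11). The cisplatin effect was higher in the TDLN than in the LN (log2 difference 2.20 ± 0.48, adjusted p = 0.00443, without the 4 libraries 1.43 ± 0.077, adjusted p = 1.1e-11), where the median of all genes tested was 0.58 and, without the 4 libraries, 0.35. TDLN exceeded LN with cisplatin (1.49 ± 0.34, adjusted p = 0.00616), by 0.81 ± 0.056, adjusted p = 2.58e-10 without the 4 libraries and by 0.81 without MSM TDLN CIS 1 alone. In SSM of the LN the rise with cisplatin was called without the 4 libraries (0.65 ± 0.06, adjusted p = 8.63e-08) and not with them (0.71 ± 0.28, adjusted p = 0.12). SSM of the TDLN lay below those of the LN with cisplatin (-1.51 ± 0.28, adjusted p = 0.00613; -1.18 ± 0.062, adjusted p = 3.75e-11 without the 4 libraries). With PBS the SSM node difference (-0.95 ± 0.28, adjusted p = 0.0376; -1.02 ± 0.059, adjusted p = 1.42e-10 without the 4 libraries) lost its call with the replicate block (adjusted p = 0.0703) and without any 1 of SSM TDLN PBS 1, 2 or 3, SSM LN PBS 1 or 3, SSM LN CIS 1, 2 or 3 (adjusted p = 0.0621 to 0.128). Comparing the cell types, Csf1r was 10.2-fold lower in MSM than in SSM in LN cisplatin (-3.35 ± 0.36, adjusted p = 4.04e-07; -3.28 ± 0.057, adjusted p = 1.48e-25 without the 4 libraries, none of which is in either group).

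**Figure D3:**
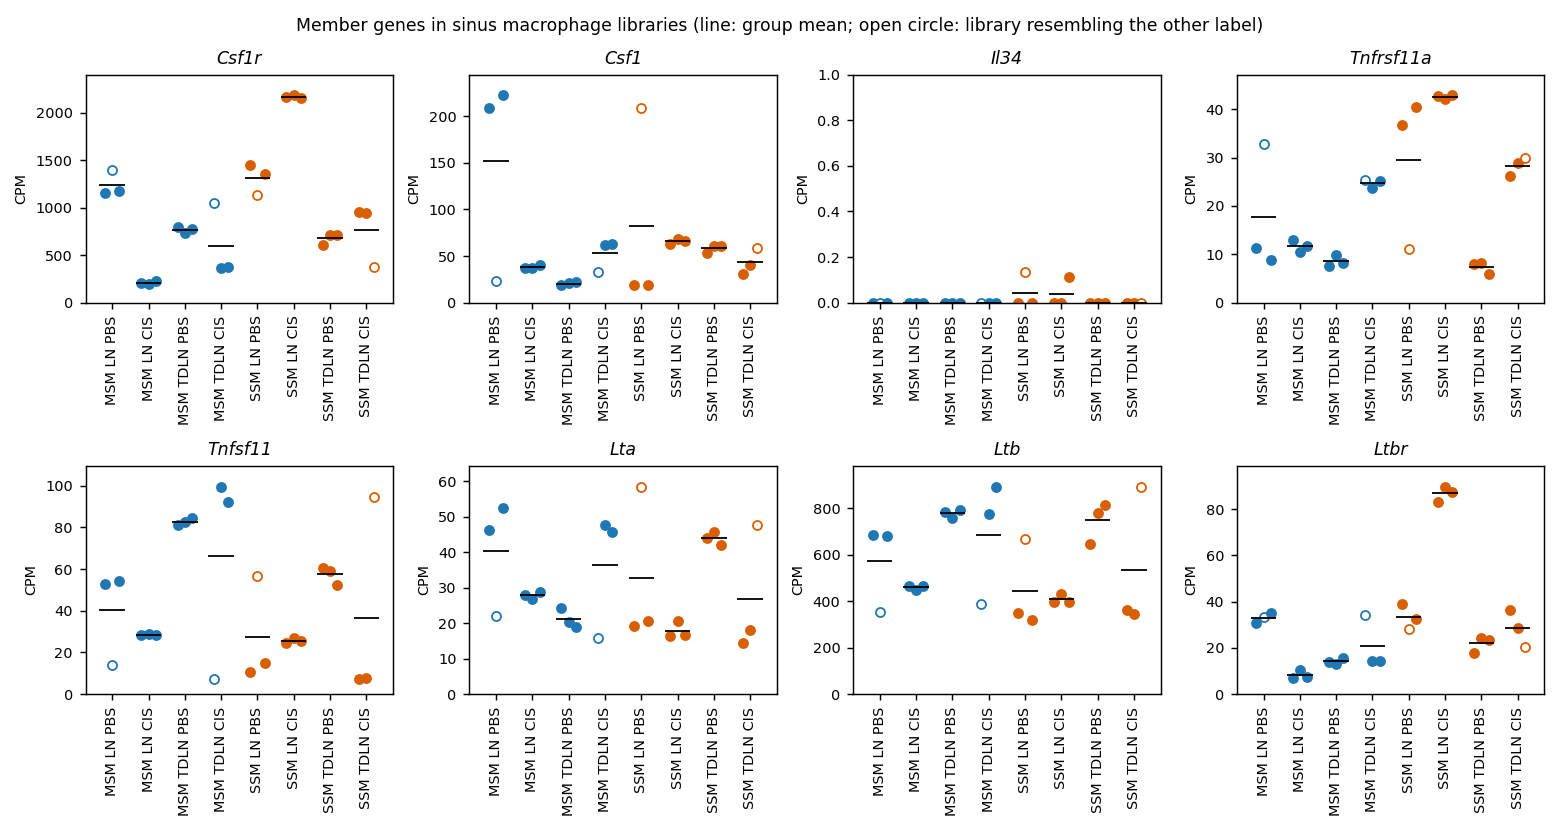
CPM of each member in each of the 24 macrophage libraries, 1 panel per gene and 1 column per group, with a point per library, an open circle for each of the 4 libraries that resembled the other label, and a line at the group's mean. Csf1r and Ltbr are highest in SSM LN cisplatin and lowest in MSM LN cisplatin, and the open circles of Csf1 and Tnfsf11 lie far from the filled points of their groups.

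Csf1 in macrophages depended on the 4 libraries. MSM LN PBS held 208, 23.5 and 222 CPM and SSM LN PBS 19.4, 209 and 18.8 CPM, so in each group the library with number 2 matched the other group. MSM LN cisplatin held 37.0, 37.4 and 40.1 CPM and MSM TDLN PBS 19.4, 20.7 and 21.7 CPM, which did not overlap. In MSM TDLN cisplatin the values were 33.1, 62.3 and 63.5 CPM. Cisplatin lowered Csf1 in MSM of the LN (log2 fold change -1.99 ± 0.62 SE, adjusted p = 0.0242; -2.50 ± 0.072, adjusted p = 6.73e-16 without the 4 libraries), but with all libraries the call was lost without any 1 of MSM LN PBS 1 or 3, MSM LN CIS 1, 2 or 3 (adjusted p = 0.0696 to 0.0835) and with the replicate number as a block (adjusted p = 0.058) or with the compared libraries alone (adjusted p = 0.0688). Summed neutrophil markers were 4516, 202 and 4341 CPM in the 3 MSM LN PBS libraries, low in the library low in Csf1, and 13.6 to 16.6 CPM in MSM LN cisplatin with 2 or 3 of 8 markers detected. Dendritic cell markers summed to 389, 1381 and 367 CPM and 3929 to 4147 CPM in the same groups. Neutrophil markers did not follow Csf1 in MSM TDLN PBS. That group had their highest sums among macrophages, 7662 to 7944 CPM, and the lowest group mean of Csf1 with all libraries. The part of neutrophil or dendritic cell markers in Csf1 was not tested. Csf1 was lower in MSM of the TDLN than of the LN with PBS (-2.90 ± 0.64, adjusted p = 0.00566; -3.40 ± 0.077, adjusted p = 2.66e-16 without the 4 libraries). In the TDLN the rise with cisplatin was called without the 4 libraries (1.63 ± 0.084, adjusted p = 9.27e-12) and not with them (1.38 ± 0.61, adjusted p = 0.101). The cisplatin effect was higher in the TDLN (3.38 ± 0.87, adjusted p = 0.0105; 4.13 ± 0.11, adjusted p = 4.89e-16 without the 4 libraries). SSM held 62.8, 67.9 and 66.5 CPM in LN cisplatin, 53.1, 61.2 and 60.5 in TDLN PBS and 31.1, 40.9 and 58.6 in TDLN cisplatin, and cisplatin in the LN gave -0.35 ± 0.76, adjusted p = 0.811 with all libraries and 1.80 ± 0.11, adjusted p = 5.72e-10 without the 4. Without them Csf1 was far higher in MSM than in SSM in LN PBS (3.45 ± 0.10, adjusted p = 5.97e-20), against 0.88 ± 0.72, adjusted p = 0.981 with all libraries.

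Il34, the other ligand of the CSF1 receptor, was at or near the counting limit in the sorted cells. No count fell on it in the 12 MSM libraries, and 2 counts fell on it in the 12 SSM libraries. A limit of 3 counts per library corresponds to 0.292 to 0.430 CPM in macrophages. In mDC 16 counts fell in 9 of 12 libraries, with 2.26 CPM as the highest value, and in rDC 61 counts fell in all 12, at 0.289 to 1.81 CPM. In mDC TDLN PBS and rDC LN PBS, the groups of deeper libraries, Il34 was 0.0794 to 0.155 CPM from 4 counts and 0.570 to 0.707 CPM from 27 counts, without overlap. Its counts were too low to pass the filter, and Il34 was tested in no comparison.

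Tnfrsf11a, which encodes RANK, had the largest average log2 fold change between mDC and rDC among the 7 tested members. Per length, on the authors' TPM scale, group means of Tnfrsf11a were 160 to 208 in mDC, above Csf1 (63.4 to 96.8), Ltb (51.4 to 82.5), Csf1r (19.7 to 52.2) and Ltbr (16.5 to 19.1). In mDC its level was 438, 482 and 472 CPM in LN PBS, 425, 416 and 428 CPM in LN cisplatin, 547, 540.5 and 556 CPM in TDLN PBS and 487, 427 and 499 CPM in TDLN cisplatin. In rDC the same groups held 23.0, 20.2 and 22.6, then 14.2, 19.4 and 13.4, then 27.4, 20.1 and 21.7, then 24.5, 23.9 and 17.5 CPM. No mDC library came near any rDC library. Tnfrsf11a was 23.1-fold higher in mDC over the 4 conditions (log2 fold change 4.53 ± 0.054 SE, adjusted p = 1.86e-32), with 4.39 ± 0.098, adjusted p = 5.14e-25 in LN PBS and 4.76 ± 0.12, adjusted p = 5.83e-24 in LN cisplatin. In the TDLN the difference was 4.55 ± 0.11, adjusted p = 2.15e-24 with PBS and 4.42 ± 0.11, adjusted p = 1.16e-23 with cisplatin.

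Within mDC Tnfrsf11a was not called for cisplatin in the TDLN (-0.09 ± 0.053, adjusted p = 0.199) or in the LN (-0.17 ± 0.057, adjusted p = 0.0621), nor between nodes with PBS (0.09 ± 0.054, adjusted p = 0.242) or cisplatin (0.16 ± 0.056, adjusted p = 0.056). DESeq2 called all 4 comparisons, with adjusted p of 0.00722, 0.042, 0.00497 and 0.0225 in that order, and without a filter on low counts the first was -0.37 (adjusted p = 5.71e-08) and the third 0.44 (adjusted p = 4.24e-11). The LN cisplatin call appeared without mDC TDLN CIS 2 (adjusted p = 0.0494), and the node call with cisplatin without mDC LN PBS 1 or 2 or mDC TDLN CIS 2 (adjusted p = 0.047, 0.0379 and 0.0128). Its group means ranged from 423 ± 6.45 CPM (SD, n = 3) in LN cisplatin to 548 ± 7.64 CPM in TDLN PBS. In rDC edgeR with all libraries called it in no comparison of treatment or node, and the log2 fold change with cisplatin was -0.43 ± 0.17, adjusted p = 0.0942 in the LN and -0.08 ± 0.18, adjusted p = 0.951 in the TDLN. The LN value was called without a filter on low counts (-0.73, adjusted p = 0.000534), with the compared libraries alone (adjusted p = 0.0224) and without rDC LN CIS 2, rDC TDLN CIS 2 or rDC TDLN CIS 3 (adjusted p = 0.0377, 0.0293 and 0.0439). Between nodes with cisplatin Tnfrsf11a was called without rDC LN CIS 2 or rDC TDLN CIS 3 (adjusted p = 0.042 and 0.0368). The summed dendritic cell markers, Ccr7 among them, were 20233 to 24962 CPM in mDC and 1999 to 2727 CPM in rDC.

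In macrophages Tnfrsf11a was low and rose with cisplatin in the TDLN. MSM TDLN held 7.61, 9.92 and 8.19 CPM with PBS and 25.3, 23.6 and 25.1 CPM with cisplatin, and SSM TDLN 7.91, 8.32 and 5.94 CPM and 26.2, 28.9 and 29.9 CPM. In both cell types all 3 cisplatin libraries exceeded all 3 PBS libraries, those that resembled the other label included. The rise was 2.91-fold in MSM (log2 fold change 1.54 ± 0.41 SE, adjusted p = 0.0147; 1.53 ± 0.17, adjusted p = 2.1e-07 without the 4 libraries), with the call lost without MSM TDLN PBS 1 or 3 (adjusted p = 0.0688 and 0.0644). In SSM it was 3.82-fold (1.93 ± 0.38, adjusted p = 0.00661; 1.89 ± 0.13, adjusted p = 1.39e-09 without the 4 libraries). The summed mast cell markers moved with this rise, from 0.119 to 0.268 CPM in MSM TDLN PBS to 1781 to 2988 CPM in MSM TDLN cisplatin, and from 7.42 to 13.8 to 1784 to 3014 CPM in SSM. The summed dendritic cell markers moved with it too, from 253 to 279.5 to 1475 to 1576 CPM in MSM and from 456 to 500.2 to 1426 to 1531 CPM in SSM. In LN cisplatin neither list followed Tnfrsf11a. There the MSM group had 1753 to 1774 CPM of mast cell markers and 3929 to 4147 CPM of dendritic cell markers. Its Tnfrsf11a was only 10.4 to 12.9 CPM. In the SSM group, with Tnfrsf11a at 42.1 to 42.8 CPM, the sums were 13.6 to 14.03 and 721 to 757 CPM. The part of either list was not tested.

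In the LN Tnfrsf11a was 36.6, 11.2 and 40.4 CPM in SSM with PBS and 42.7, 42.1 and 42.8 CPM with cisplatin. MSM LN held 11.4, 32.7 and 8.92 CPM and 12.9, 10.4 and 11.6 CPM. SSM LN cisplatin was the highest macrophage group and overlapped no other. With PBS Tnfrsf11a was lower in SSM of the TDLN than of the LN (-1.99 ± 0.38, adjusted p = 0.00652; -2.35 ± 0.13, adjusted p = 5.43e-11 without the 4 libraries). In MSM the cisplatin effect was higher in the TDLN than in the LN (log2 difference 2.14 ± 0.58, adjusted p = 0.013), by 1.34 (adjusted p = 9.49e-05) without the 4 libraries and by 1.35 without MSM LN PBS 2 alone. MSM was 3.65-fold below SSM in LN cisplatin (-1.87 ± 0.41, adjusted p = 0.0011; -1.81 ± 0.12, adjusted p = 4.44e-13 without the 4 libraries).

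Tnfsf11, which encodes RANKL, was present in every macrophage library and near the counting limit in dendritic cells. MSM TDLN held 81.1, 82.7 and 84.4 CPM with PBS and 7.10, 99.6 and 92.3 CPM with cisplatin. SSM TDLN held 60.7, 59.0 and 52.6 CPM and 7.40, 7.83 and 94.5 CPM. In MSM TDLN cisplatin and SSM TDLN cisplatin 1 library each lay with the other label, and with all libraries no macrophage comparison called Tnfsf11. Without the 4 libraries cisplatin lowered Tnfsf11 in SSM of the TDLN (-2.91 ± 0.14, adjusted p = 1.39e-11), against -0.64 ± 0.90, adjusted p = 0.64 with all libraries, and MSM exceeded SSM in TDLN cisplatin (3.65 ± 0.12, adjusted p = 4.4e-19).

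In the LN MSM held 52.9, 13.7 and 54.5 CPM with PBS and 28.4, 28.6 and 28.5 CPM with cisplatin, and SSM 10.6, 56.6 and 14.9 and 24.4, 26.8 and 25.6 CPM. The library labelled MSM LN PBS 2 was low among its group and SSM LN PBS 2 high. Without the 4 libraries cisplatin lowered Tnfsf11 in MSM (-0.91 ± 0.081, adjusted p = 9.73e-09) and raised it in SSM of the LN (1.03 ± 0.14, adjusted p = 6.05e-06), while with PBS SSM of the TDLN exceeded those of the LN (2.20 ± 0.13, adjusted p = 1.97e-10). T cells are a known source of RANKL. In SSM TDLN cisplatin the T cell markers summed to 584, 583 and 1801 CPM in the 3 libraries in turn, and in MSM TDLN cisplatin to 620.2, 1699.6 and 1856 CPM. The libraries high in Tnfsf11 were those high in T cell markers in both groups and in LN PBS, with 1753, 768 and 1761 CPM in MSM and 744, 1712 and 687 CPM in SSM. The sums were 2356 to 2455 CPM in MSM TDLN PBS, 2097 to 2234 CPM in SSM TDLN PBS, 1933 to 1986 CPM in MSM LN cisplatin and 1273 to 1319 CPM in SSM LN cisplatin. T cell markers in MSM LN cisplatin thus exceeded those of MSM LN PBS 1 and 3, while Tnfsf11 was lower than in both. Summed NK and innate lymphoid markers were also high in the libraries high in Tnfsf11, at 140.2, 1318 and 1174 CPM in MSM TDLN cisplatin, 127, 145 and 1139 CPM in SSM TDLN cisplatin, 948, 213 and 985 CPM in MSM LN PBS and 217, 963 and 230.3 CPM in SSM LN PBS. They were 1113 to 1176 and 1016 to 1182 CPM in TDLN PBS and 563 to 577 and 553 to 598 CPM in LN cisplatin, MSM first. All 8 T cell markers and 5 to 8 of 8 NK and innate lymphoid markers were detected in each library, and the part of either list in Tnfsf11 was not tested.

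In rDC Tnfsf11 gave 0.380, 0 and 0.452 CPM in LN PBS and 3.76, 3.18 and 3.24 CPM in LN cisplatin, from 13 and 38 counts in all. In the TDLN it was 2.36, 2.68 and 3.52 CPM with PBS and 0.895, 0.772 and 1.81 CPM with cisplatin, from 30 and 12 counts. LN cisplatin and LN PBS did not overlap, nor did TDLN PBS and TDLN cisplatin. With these few counts cisplatin raised Tnfsf11 in the LN (log2 fold change 3.48 ± 0.57 SE, adjusted p = 0.0006; thinned 2.68, adjusted p = 0.0103) and TDLN exceeded LN with PBS (3.22 ± 0.59, adjusted p = 0.000873). In the TDLN the lower level with cisplatin was not called (-1.30 ± 0.62, adjusted p = 0.53), and the cisplatin effect differed between nodes (-4.79 ± 0.84, adjusted p = 0.00175). The 8 T cell markers summed to 409.6 to 459.9 CPM in rDC LN PBS, 498 to 505 CPM in LN cisplatin, 917 to 954 CPM in TDLN PBS and 599.9 to 679 CPM in TDLN cisplatin, so the sum was higher in TDLN cisplatin than in LN cisplatin, unlike Tnfsf11. Summed NK and innate lymphoid markers were 41.2 to 48.04, 146 to 164, 99.4 to 118 and 75.4 to 119 CPM in the same order of groups. The part of either list was not tested. In mDC Tnfsf11 had at most 2.74 CPM in any library and was not tested among treatments or nodes. Between mDC and rDC it was higher in mDC in LN PBS (2.55 ± 0.77, adjusted p = 0.00493), a call lost without mDC LN PBS 3 (adjusted p = 0.0617). It was lower in mDC in TDLN PBS (-2.10 ± 0.59, adjusted p = 0.00243) and in LN cisplatin (-1.81 ± 0.70, adjusted p = 0.0284), the latter lost without any 1 of rDC LN CIS 1 or 3, mDC LN CIS 2 or 3 (adjusted p = 0.0523 to 0.16) and without a filter on low counts (adjusted p = 0.0773), and moved to -3.01 without mDC LN CIS 1.

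**Figure D4:**
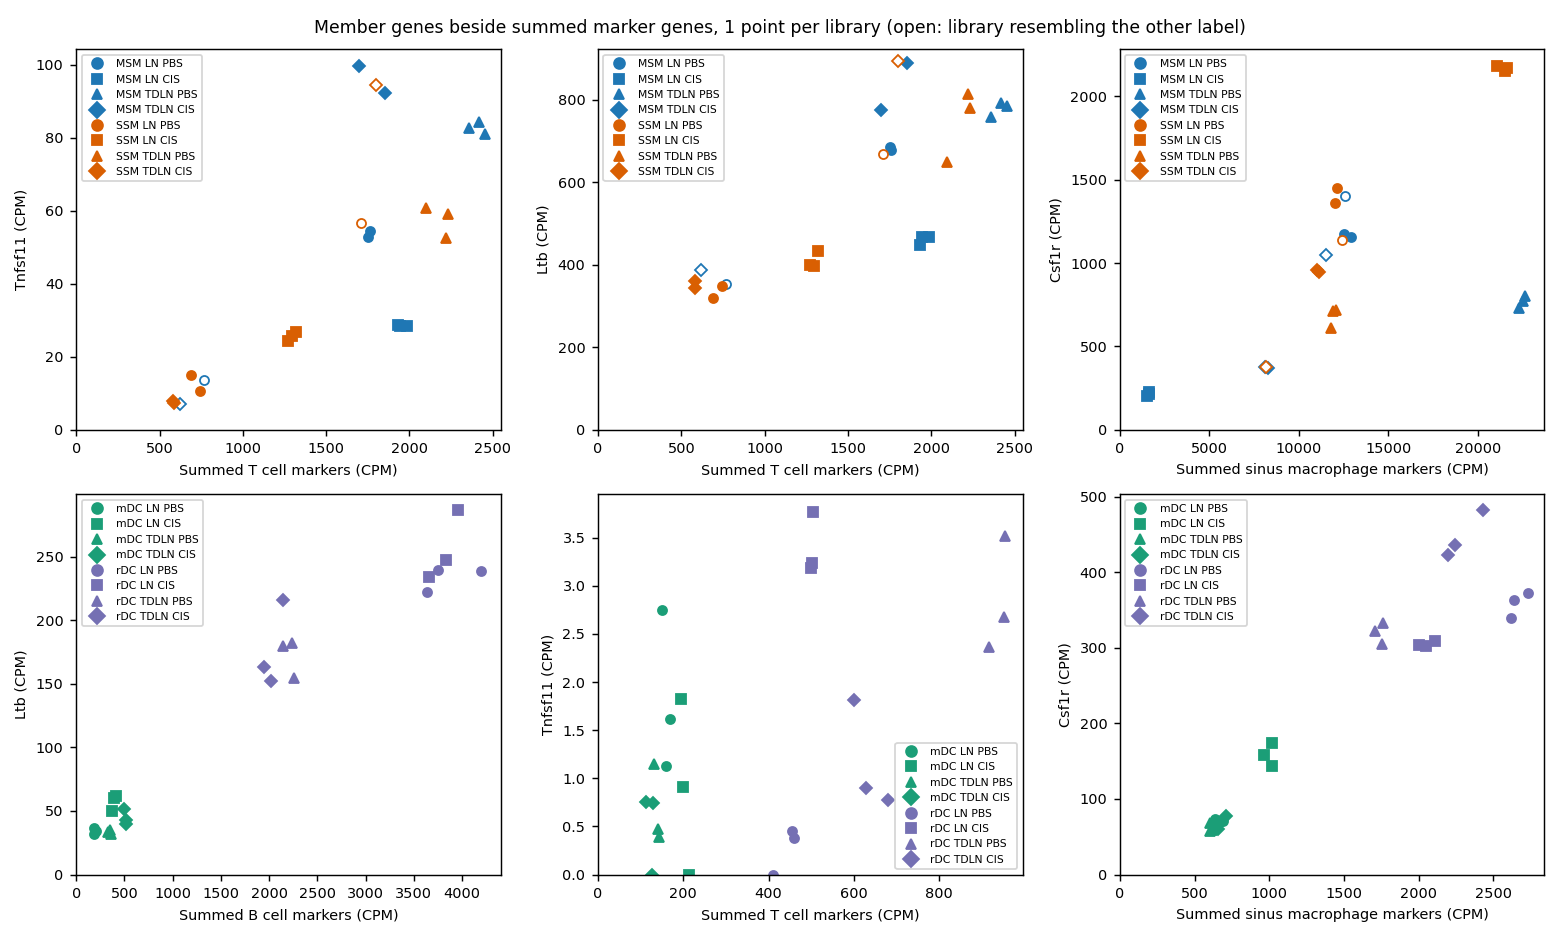
CPM of a member against the summed CPM of a marker list in each library, for Tnfsf11 and Ltb against T cell markers and Csf1r against sinus macrophage markers in macrophages, and for Ltb against B cell markers, Tnfsf11 against T cell markers and Csf1r against sinus macrophage markers in dendritic cells. The MSM LN cisplatin libraries, with 1541 to 1607 CPM of sinus macrophage markers, have the lowest Csf1r of the macrophages, and rDC exceed mDC in both Ltb and B cell markers.

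Ltbr, the lymphotoxin β receptor, had its highest and lowest macrophage levels in the same groups as Csf1r. MSM LN held 30.7, 33.2 and 34.9 CPM with PBS and 6.74, 10.6 and 7.46 CPM with cisplatin. SSM LN held 38.9, 28.0 and 32.6 CPM and 83.2, 89.7 and 87.5 CPM. The cisplatin libraries lay below every PBS library in MSM and above every PBS library in SSM, and SSM LN cisplatin overlapped no other group. Cisplatin lowered Ltbr 3.99-fold in MSM of the LN (log2 fold change -1.996 ± 0.34 SE, adjusted p = 0.00115; -1.98 ± 0.16, adjusted p = 3.53e-09 without the 4 libraries) and raised it 2.59-fold in SSM of the LN (1.37 ± 0.21, adjusted p = 0.00353; 1.299 ± 0.12, adjusted p = 5.02e-08 without the 4 libraries). In LN cisplatin MSM was 10.5-fold below SSM (-3.39 ± 0.30, adjusted p = 4.33e-08; -3.32 ± 0.14, adjusted p = 1.46e-17 without the 4 libraries). Sinus macrophage markers summed to 1541 to 1607 CPM in that MSM group and to 21053 to 21606 CPM in that SSM group, and their part was not tested.

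In the TDLN Ltbr was 13.7, 13.03 and 15.7 CPM in MSM with PBS and 34.1, 14.3 and 14.5 CPM with cisplatin, and in SSM 18.0, 24.3 and 23.5 and 36.3, 28.6 and 20.2 CPM. PBS and cisplatin overlapped in both cell types, and cisplatin was not called in MSM (0.59 ± 0.32, adjusted p = 0.182) or SSM (0.36 ± 0.21, adjusted p = 0.22). Leaving out the 4 libraries, Ltbr rose in SSM (0.55 ± 0.13, adjusted p = 0.00116) and was not called in MSM (0.05 ± 0.17, adjusted p = 0.829), and without SSM TDLN CIS 3 alone the SSM value was 0.56 (adjusted p = 0.0224). The cisplatin effect was higher in the TDLN than in the LN in MSM (2.58 ± 0.46, adjusted p = 0.00148; 2.03 ± 0.24, adjusted p = 4.14e-07 without the 4 libraries). In SSM it was lower in the TDLN (-1.01 ± 0.29, adjusted p = 0.0327; -0.75 ± 0.17, adjusted p = 0.0012 without the 4 libraries), a call lost with the replicate number as a block (adjusted p = 0.0619), without a filter on low counts (adjusted p = 0.0628) and without any 1 of SSM TDLN PBS 2 or 3, SSM TDLN CIS 2, SSM LN PBS 3, SSM LN CIS 1, 2 or 3 (adjusted p = 0.0655 to 0.0851). TDLN was below LN in SSM with cisplatin (-1.61 ± 0.21, adjusted p = 0.00103; -1.42 ± 0.12, adjusted p = 1.67e-08 without the 4 libraries). In MSM it was below LN with PBS (-1.24 ± 0.33, adjusted p = 0.0135; -1.23 ± 0.15, adjusted p = 1.08e-06 without the 4 libraries), lost without MSM TDLN PBS 1 or 2 (adjusted p = 0.065 and 0.0684). With cisplatin MSM of the TDLN exceeded those of the LN (1.34 ± 0.33, adjusted p = 0.00867), by 0.80 ± 0.18, adjusted p = 0.000574 without the 4 libraries and by 0.80 without MSM TDLN CIS 1 alone.

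Averaged over the 4 conditions, Csf1r (-0.90 ± 0.16, adjusted p = 0.000331), Tnfrsf11a (-0.65 ± 0.20, adjusted p = 0.0194) and Ltbr (-1.12 ± 0.14, adjusted p = 5.98e-06), the 3 receptors, were lower in MSM than in SSM. Without the 4 libraries these values were -1.20 ± 0.029, adjusted p = 2.74e-22, -0.94 ± 0.071, adjusted p = 7.11e-12 and -1.33 ± 0.073, adjusted p = 9.92e-15. With all libraries LN cisplatin was the only single condition that called a receptor, and it called all 3. The MSM group of that condition had sinus macrophage markers at only 1541 to 1607 CPM summed. B cell markers also ran the other way there than elsewhere. In LN cisplatin the median of their sums was 4901 CPM for MSM against 283 CPM for SSM. With MSM first, the medians were 272 and 3743 CPM in LN PBS and 52.8 and 1028 CPM in TDLN PBS. They were 439 and 4810 CPM in TDLN cisplatin. The part of either list in the averages was not tested. Without the 4 libraries Csf1r was also lower in MSM in LN PBS (-0.31) and TDLN cisplatin (-1.36). In that fit Tnfrsf11a was called lower in MSM in LN PBS (-1.96) and LN cisplatin, and in neither TDLN condition. The ligands Csf1, Tnfsf11, Lta and Ltb were not called on average with all libraries. On average they were higher in MSM once the 4 libraries were left out. Csf1 was at 0.50 ± 0.048, adjusted p = 6.69e-10, Tnfsf11 at 1.60 ± 0.053, adjusted p = 1.63e-19, Lta at 0.61 ± 0.059, adjusted p = 1.03e-09 and Ltb at 0.63 ± 0.036, adjusted p = 2.64e-14. The sign was not the same in every condition of that fit. Csf1 was higher in MSM in LN PBS (3.45) and TDLN cisplatin (0.79). It was lower in MSM in LN cisplatin (-0.72) and TDLN PBS (-1.505). Lta was lower in MSM in TDLN PBS (-1.05) and higher in the other conditions. In TDLN PBS, where none of the 4 libraries belongs, no receptor was called in the fit of all libraries, with Csf1r at 0.18 ± 0.32, adjusted p = 0.743, Tnfrsf11a at 0.21 ± 0.41, adjusted p = 0.757 and Ltbr at -0.63 ± 0.28, adjusted p = 0.0796. Without the 4 libraries Csf1r was higher in MSM (0.17 ± 0.052, adjusted p = 0.0043) and Ltbr lower (-0.64 ± 0.14, adjusted p = 0.000214), and both were called with the compared libraries alone (adjusted p = 0.0319 and 0.000722). Ltbr was also called without MSM TDLN CIS 1 alone (adjusted p = 0.0156).

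In dendritic cells Ltbr lay between 12.7 and 28.1 CPM in all 24 libraries and most neighbouring groups overlapped. With edgeR and all libraries no comparison of treatment or node called it. In rDC cisplatin in the LN was called without a filter on low counts (-0.55, adjusted p = 0.0178), and the nodes with cisplatin without rDC TDLN CIS 1 (0.65, adjusted p = 0.0221). It was called between mDC and rDC in LN cisplatin (0.46 ± 0.19, adjusted p = 0.0456), and the call was lost with the replicate block (adjusted p = 0.0578), with thinning (adjusted p = 0.0511), without a filter on low counts (adjusted p = 0.0501) and without any 1 of rDC TDLN PBS 1, rDC LN PBS 1, 2 or 3, rDC LN CIS 2 or 3, mDC TDLN PBS 1, 2 or 3, mDC TDLN CIS 3, mDC LN PBS 3, mDC LN CIS 1, 2 or 3 (adjusted p = 0.051 to 0.208). Over the 4 conditions the difference was 0.17 ± 0.09, adjusted p = 0.0838, and it was called without mDC TDLN CIS 2, rDC LN CIS 1, rDC TDLN CIS 2 or rDC TDLN PBS 3 (adjusted p = 0.0371, 0.0385, 0.00471 and 0.0474).

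Ltb, the membrane-bound subunit of the lymphotoxin trimer, had the highest level per length of the members in rDC, with group means of 319 to 478 TPM against 136 to 185 TPM for Csf1r. In rDC it was 222, 239 and 239 CPM in LN PBS, 286, 234 and 247 CPM in LN cisplatin, 155, 179.8 and 182 CPM in TDLN PBS and 163, 216 and 152 CPM in TDLN cisplatin. In mDC it was 36.5, 34.3 and 32.0, then 49.8, 60.0 and 61.6, then 33.1, 35.2 and 32.0, then 39.9, 42.7 and 51.7 CPM in the same order. Every rDC library exceeded every mDC library, LN exceeded TDLN without overlap in rDC, and both cisplatin groups of mDC lay above both PBS groups. Ltb was 4.999-fold lower in mDC over the 4 conditions (log2 fold change -2.32 ± 0.061 SE, adjusted p = 4.54e-24). Cisplatin raised Ltb in mDC 1.61-fold in the LN (0.69 ± 0.13, adjusted p = 0.000997) and 1.46-fold in the TDLN (0.54 ± 0.11, adjusted p = 0.000968), the latter lost without a filter on low counts (adjusted p = 0.0889). In rDC it was not called for cisplatin in the LN (0.20 ± 0.12, adjusted p = 0.258) or TDLN (0.05 ± 0.12, adjusted p = 0.961). TDLN was below LN in rDC with cisplatin (-0.54 ± 0.12, adjusted p = 0.00546) and with PBS (-0.38 ± 0.12, adjusted p = 0.0231). The PBS call was lost without rDC TDLN PBS 1, rDC LN PBS 2 or 3 (adjusted p = 0.11, 0.0517 and 0.0662), and the value was -0.65 without a filter on low counts.

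B cells are a main source of Ltb, and B cell markers were higher in rDC than in mDC and, within rDC, higher in the LN than in the TDLN, as Ltb was. Within mDC they did not follow Ltb in every group. The 8 markers summed to 3632 to 4201 CPM in rDC LN PBS, 3653 to 3955 in rDC LN cisplatin, 2145 to 2257 in rDC TDLN PBS and 1943 to 2141 in rDC TDLN cisplatin, and in mDC to 185 to 201 CPM in LN PBS, 373 to 416 in LN cisplatin, 331 to 357 in TDLN PBS and 491 to 518 in TDLN cisplatin. TDLN cisplatin had the highest sum in mDC and LN cisplatin the highest mean of Ltb. Cd79a, a subunit of the B cell receptor, was 29.2 to 37.3 CPM in mDC LN PBS and 73.4 to 88.8 in mDC LN cisplatin, and 57.2 to 64.5 and 84.6 to 86.8 CPM in the TDLN groups. It ranged from 351 to 862 CPM in rDC. The part of B cell RNA in Ltb was not tested.

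In macrophages Ltb was high in all groups and no comparison called it in the fit of all libraries, although MSM exceeded SSM in LN cisplatin with those 6 libraries alone (0.23, adjusted p = 9.01e-05). MSM LN held 684, 354 and 679 CPM with PBS and 467, 447 and 466 CPM with cisplatin, and SSM LN 349, 668 and 319 and 398, 432 and 397 CPM. MSM TDLN held 785, 758 and 791 CPM with PBS and 386, 774 and 889 CPM with cisplatin, and SSM TDLN 648, 780.4 and 813 and 361, 344 and 893 CPM. Each of the 4 libraries lay outside the range of the others in its group. Without them cisplatin lowered Ltb in SSM of the TDLN (-1.08 ± 0.082, adjusted p = 4.22e-09) and in MSM of the LN (-0.57 ± 0.055, adjusted p = 3.39e-08), and MSM exceeded SSM in TDLN cisplatin (1.23 ± 0.08, adjusted p = 4.76e-13). Summed B cell markers were 48.01 to 54.3 CPM in MSM TDLN PBS, where Ltb had its highest group mean with all libraries, with Cd79a at 0.134 to 0.357 CPM. T cell markers there summed to 2356 to 2455 CPM, the highest of the macrophage groups, and their part in Ltb was not tested. Leaving out the 4 libraries, MSM TDLN cisplatin had the higher mean of Ltb, 832 against 778 CPM in MSM TDLN PBS.

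Lta, the soluble lymphotoxin subunit, was low. MSM LN held 46.3, 22.0 and 52.4 CPM with PBS and 27.9, 26.9 and 28.9 with cisplatin, MSM TDLN 24.4, 20.3 and 18.9 and 15.9, 47.6 and 45.6, SSM LN 19.3, 58.5 and 20.5 and 16.4, 20.5 and 16.8, and SSM TDLN 44.1, 45.6 and 42.1 and 14.4, 18.2 and 47.7. As with Ltb, no macrophage comparison called Lta in the fit of all libraries. With the compared libraries alone Lta was higher in MSM than in SSM in LN cisplatin (0.71, adjusted p = 8.46e-06) and lower in TDLN PBS (-1.07, adjusted p = 4.63e-07). Without the 4 libraries cisplatin raised it in MSM of the TDLN (1.16 ± 0.11, adjusted p = 4.42e-08) and lowered it in SSM of the TDLN (-1.42 ± 0.13, adjusted p = 3.12e-08) and in MSM of the LN (-0.82 ± 0.11, adjusted p = 1.78e-06). In dendritic cells Lta was 2.96 to 8.19 CPM in mDC. In rDC it was 7.72, 9.11 and 6.53 CPM in LN PBS, 14.8, 9.26 and 10.5 in LN cisplatin, 6.38, 5.69 and 6.46 in TDLN PBS and 4.78, 7.72 and 3.62 in TDLN cisplatin. Cisplatin in rDC of the LN was called for Lta with the compared libraries alone (0.60, adjusted p = 0.0327; 0.64 ± 0.23, adjusted p = 0.0657 in the fit of all). TDLN was below LN in rDC with cisplatin (log2 fold change -1.08 ± 0.28 SE, adjusted p = 0.0145), and the call was lost without rDC TDLN CIS 3, rDC LN CIS 1 (adjusted p = 0.0621 and 0.0802) and with the 6 compared libraries alone (adjusted p = 0.0571). Lta was lower in mDC than in rDC on average (-0.55 ± 0.16, adjusted p = 0.00289), in LN cisplatin (-1.01 ± 0.31, adjusted p = 0.00703; lost without rDC LN CIS 1, mDC LN CIS 2 (adjusted p = 0.0545 and 0.0634)) and in TDLN PBS (-0.72 ± 0.30, adjusted p = 0.0327; lost without a filter on low counts, adjusted p = 0.136, and without any 1 of rDC TDLN PBS 1, 2 or 3, mDC TDLN PBS 1 or 2 (adjusted p = 0.0545 to 0.127)).

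Other genes of these pathways split between mDC and rDC. Of 14 tested genes around the CSF1 receptor 3 were higher and 9 lower in mDC (median log2 fold change -0.65, against -0.06 over all genes), where 74.4% of all genes were called. They include the inositol phosphatase gene Inpp5d -1.80 ± 0.035, adjusted p = 3.47e-27, the kinase gene Syk -1.44 ± 0.032, adjusted p = 9.08e-26 and, in the other direction, the cytokine receptor gene Csf2rb 1.59 ± 0.039, adjusted p = 7.17e-25. Of 6 RANK pathway genes 2 were higher and 4 lower (median -1.18). The RANK adaptor gene was higher (Traf6 2.06 ± 0.043, adjusted p = 1.23e-26), while the osteoclast genes Nfatc1 -1.78 ± 0.039, adjusted p = 3.59e-26, and Acp5 -2.20 ± 0.063, adjusted p = 3.77e-23, were lower. Of 12 lymphotoxin and TNF pathway genes 10 were higher and 1 lower in mDC (median 1.74). Examples were the TNF receptor gene Tnfrsf1b 2.79 ± 0.032, adjusted p = 7.36e-33, the non-canonical NF-κB subunit gene Relb 3.83 ± 0.047, adjusted p = 3.86e-32, and the ubiquitin ligase gene Birc2 3.56 ± 0.058, adjusted p = 3.59e-29. Among genes known to depend on lymphotoxin in lymph node stroma, 5 of 5 tested were higher in mDC, such as Icam1 3.23 ± 0.037, adjusted p = 6.37e-33, and Vcam1 2.48 ± 0.05, adjusted p = 5.65e-27.

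The cisplatin comparisons called fewer genes of these lists, as of all genes (11% in mDC of the LN, 27.3% in mDC of the TDLN and 17.9% in rDC of the LN). In mDC of the LN 3 of 14 CSF1 receptor pathway genes rose and 1 fell, 3 of 5 RANK pathway genes rose, and 2 of 12 lymphotoxin and TNF pathway genes rose and 2 fell. The GM-CSF receptor gene Csf2ra 0.49 ± 0.096, adjusted p = 0.00103, rose there with Csf1r, and so did Tnfrsf1a 0.70 ± 0.13, adjusted p = 0.00066, a TNF receptor gene. In mDC of the TDLN 5 of 14, 1 of 5 and 0 of 12 rose in the same lists and 0, 2 and 4 fell. The phosphatase gene Ptpn6 0.49 ± 0.059, adjusted p = 2.24e-06, rose and the cytokine gene Tnf -0.49 ± 0.099, adjusted p = 0.000702, fell. In rDC of the LN 2 of 14, 2 of 5 and 1 of 12 rose and 1, 2 and 2 fell, with Acp5 0.62 ± 0.082, adjusted p = 7.11e-05, among those that rose.

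In MSM of the LN 8 of 15 CSF1 receptor pathway genes fell with cisplatin and 0 rose (median -0.55, against -0.15 over all genes), where 43.4% of all genes were called, and without the 4 libraries 11 fell and 4 rose, where 74% of all genes were called. The adaptor gene Tyrobp -1.81 ± 0.18, adjusted p = 4.17e-05 (-1.99, adjusted p = 1.14e-15 without the 4 libraries), and the myeloid factor gene Spi1 -1.72 ± 0.19, adjusted p = 9.04e-05 (-1.61, adjusted p = 8.42e-13), fell with Csf1r. Of 13 lymphotoxin and TNF pathway genes 2 rose and 7 fell (2 and 9 without the 4 libraries). Relb was among those that rose (Relb 0.64 ± 0.10, adjusted p = 0.000772; 0.68, adjusted p = 2.88e-08 without the 4 libraries). Sinus macrophage markers summed to 12504 to 12925 CPM in MSM LN PBS and to 1541 to 1607 CPM in MSM LN cisplatin. The latter group, also compared with SSM below, had 4757 to 4905 CPM of B cell markers and 3929 to 4147 CPM of dendritic cell markers. The part of these lists in the pathway genes was not tested. In SSM of the LN 2 of 15 CSF1 receptor pathway genes rose and 0 fell (7 and 4 without the 4 libraries), where 13.3% of all genes (60% without the 4) were called, with Csf2ra 1.24 ± 0.33, adjusted p = 0.0319 (1.498, adjusted p = 2.83e-10). The TNF receptor gene Tnfrsf1a 1.29 ± 0.27, adjusted p = 0.0138 (1.69, adjusted p = 2.37e-12 without the 4 libraries), rose there with Ltbr. In LN cisplatin 10 of 15 CSF1 receptor pathway genes were lower in MSM than in SSM and 1 was higher (12 and 3 without the 4 libraries), against 49.7% and 72.4% of all genes called. In MSM of the TDLN cisplatin raised Traf6 0.47 ± 0.15, adjusted p = 0.0285 (0.59, adjusted p = 3.66e-05 without the 4 libraries), the RANK adaptor gene, and Nfatc1 0.74 ± 0.16, adjusted p = 0.00594 (0.64, adjusted p = 2.33e-08). Of all genes 37.1% were called in that comparison, and 69% without the 4 libraries. In SSM of the TDLN, where Tnfrsf11a also rose, no RANK pathway gene with a mean of at least 4 CPM was called with all libraries.

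The genes whose profile came closest to each member were found by the root mean square difference of centred log2(CPM + 1) over the 24 libraries of a table. In dendritic cells 10633 genes were compared. Csf1r was closest to Nfam1 (0.156), Plekho2 (0.185), Rgl1 (0.192), Csf1 to Spsb1 (0.301), Plppr4 (0.316) and Tnfrsf11a to Arhgap22 (0.227), Slc22a23 (0.241), Fabp5 (0.244). Ltb was closest to Evl (0.165), Shisa5 (0.184), Hip1r (0.204), Ltbr to Vrk3 (0.173), Chpf2 (0.177), Wdr24 (0.178) and Lta to Klf3 (0.331), Ttll3 (0.336). In macrophages 10535 genes were compared over 24 libraries, the 4 included. Csf1r was closest to Asah1 (0.255), Hpse (0.260), Plbd1 (0.304), Ltbr to Ms4a6c (0.316), Plod3 (0.337), Tgfbi (0.338) and Tnfrsf11a to Dstyk (0.294), Inppl1 (0.358), Gpld1 (0.374). Csf1 was closest to Arg2 (0.460), Ifitm1 (0.493), Cks2 (0.494) and Tnfsf11 to F2r (0.270), Sdc1 (0.274), Znrf1 (0.290). Ltb was closest to Gramd1a (0.155), Ppp1r11 (0.163), Sec11c (0.185) and Lta to Paxbp1 (0.253), Ikbip (0.269), Hspa13 (0.272). These values describe the libraries, which share cell type, node and treatment.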

How the data were processed

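Polyadenylated RNA of cells sorted from digested nodes was sequenced after a stranded library kit, per the labels. Per the submitters' processing notes STAR, RSEM 1.3.0, DESeq2 1.38.3 and GRCm38 were used. The authors deposited expected counts of RSEM as whole numbers, used here for every test. The authors also deposited TPM for the dendritic cells, used for levels between genes. The deposited macrophage TPM have their decimals dropped and are treated as a score, used only to check columns. All 48 count columns matched their own TPM or score column best. Among dendritic cell columns, Tumor was taken to mean TDLN and, by elimination, WT to mean LN.

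Counts were filtered with edgeR 4.0.16 filterByExpr by group and scaled with TMM. Quasi-likelihood tests used 1 model for the 4 groups of each cell type (12 libraries) and 1 for the 8 groups of each table (24 libraries), 30 comparisons in 6 families, with Benjamini-Hochberg adjustment over all genes tested and a limit of 0.05. The standard error is the absolute log2 fold change divided by the square root of F. Printed CPM are scaled over a table's 24 libraries and fold changes within the fitted libraries, so they differ slightly. The scripts were tested on simulated data. Every member was named. Pathway genes were named from the 4 smallest adjusted p per list and comparison with a mean of at least 4 CPM. Up to 3 like genes were named per member. They leave out predicted, immunoglobulin and T cell receptor genes, Xist and the Y genes Ddx3y, Uty, Eif2s3y and Kdm5d. A few genes that these rules name are not reported here. Members and lists were chosen with earlier results of these data known.

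Alternatives were DESeq2 1.42.0, its size factors, no filter on low counts, the compared libraries alone, the replicate number as a block, each library left out, the 4 macrophage libraries left out, and dendritic cell libraries above 5000000 counts thinned to 3000000. Of 99.4% of the genes a symbol was found in GENCODE vM21, the source of coordinates. Other software was matplotlib 3.10.9, numpy 2.4.6, pandas 2.3.3, Python 3.11.15, limma 3.58.1 and R 4.3.3.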

Additional observations from a re-analysis of the deposited data

Results flagged for a closer look

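For 10 pairs of a member and a cell type the effect of cisplatin differed between TDLN and LN by edgeR's test of the difference itself, given as TDLN minus LN on the log2 scale ± SE. In MSM, with 7 members tested and 40.7% of all genes called, these were Csf1r (2.20 ± 0.48, adjusted p = 0.00443), Csf1 (3.38 ± 0.87, adjusted p = 0.0105), Tnfrsf11a (2.14 ± 0.58, adjusted p = 0.013) and Ltbr (2.58 ± 0.46, adjusted p = 0.00148). Here the LN cisplatin group has sinus macrophage markers at 1541 to 1607 CPM summed, and the part of that in the differences was not tested. In SSM, with 7 tested and 21.6% of all genes called, it was Ltbr (-1.01 ± 0.29, adjusted p = 0.0327). The Ltbr call in SSM was lost with the replicate block, without a filter on low counts and without any 1 of several libraries.

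In mDC, with 6 tested and 15.6% of all genes called, the effect differed for Csf1r (-0.84 ± 0.14, adjusted p = 0.000229) and Csf1 (-0.74 ± 0.10, adjusted p = 3.23e-05). In rDC, with 7 tested and 5.31% of all genes called, it differed for Csf1r (0.64 ± 0.11, adjusted p = 0.00153), Csf1 (-0.86 ± 0.23, adjusted p = 0.039) and Tnfsf11 (-4.79 ± 0.84, adjusted p = 0.00175). The Csf1 call in rDC was lost with thinning, DESeq2, no filter on low counts or the replicate block, and on leaving out most single libraries. The opposite signs of Csf1r in mDC and rDC were not tested against each other, and mDC TDLN PBS and rDC LN PBS are the groups of deeper libraries.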

How the results depend on the processing

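Leaving out the 4 macrophage libraries moved the member tests called from 12 to 31 of 35 in MSM, from 7 to 31 in SSM and from 6 to 31 between them, and it ended no call. It reversed 12 values. They became 0.24 for Tnfsf11 and 0.12 for Ltb (MSM, cisplatin, TDLN), 0.19 for Tnfrsf11a (MSM, cisplatin, LN), and 1.80 for Csf1, 1.03 for Tnfsf11 and 0.31 for Ltb (SSM, cisplatin, LN). Between SSM of TDLN and LN they became 1.63 for Csf1 with PBS and -1.74 for Tnfsf11, -0.12 for Lta and -0.21 for Ltb with cisplatin. The SSM node difference became -1.29 for Lta and MSM against SSM on average 0.50 for Csf1. With 1 library left out the calls were 10 to 19 in MSM, 5 to 16 in SSM, 10 to 13 in mDC, 10 to 15 in rDC, 6 to 8 between MSM and SSM and 24 to 28 between mDC and rDC. They were 19 in MSM without MSM TDLN CIS 1, and 14 and 16 in SSM without SSM LN PBS 2 and SSM TDLN CIS 3. In 31 results, called or not, leaving out 1 library changed the sign for at least 1 library, and their lowest and highest values follow. In MSM they were Tnfsf11 -0.21 to 0.74 and Ltb -0.0732 to 0.44 (node difference), Tnfrsf11a -0.92 to 0.20 (cisplatin, LN), Tnfsf11 -0.71 to 0.24 and Ltb -0.39 to 0.12 (cisplatin, TDLN). In SSM they were Csf1 -2.21 to 0.41 and Lta -0.56 to 0.47 (node difference), Csf1 -0.82 to 1.80 and Tnfsf11 -0.50 to 1.02 and Ltb -0.33 to 0.32 (cisplatin, LN), Csf1 -0.98 to 1.63 (nodes, PBS), Csf1r -0.0371 to 0.49 (cisplatin, TDLN), Tnfsf11 -1.73 to 1.03 and Lta -0.12 to 0.89 and Ltb -0.20 to 0.65 (nodes, cisplatin). In mDC they were Lta -0.53 to 0.29 and Ltbr -0.21 to 0.16 (nodes, cisplatin), Lta -0.54 to 0.16 (cisplatin, LN), Ltbr -0.0478 to 0.33 (cisplatin, TDLN). In rDC they were Csf1 -0.0298 to 0.0797 (nodes, cisplatin), Ltb -0.12 to 0.14 and Ltbr -0.0890 to 0.22 and Tnfrsf11a -0.17 to 0.0717 and Lta -0.56 to 0.0227 (cisplatin, TDLN), Tnfrsf11a -0.0210 to 0.20 (nodes, PBS). For MSM against SSM they were Ltbr -0.15 to 0.12 (LN PBS), Csf1 -0.39 to 0.25 (average), Ltb -0.0399 to 0.14 (TDLN PBS). For mDC against rDC they were Ltbr -0.0717 to 0.14 (TDLN PBS), Lta -0.47 to 0.38 and Ltbr -0.22 to 0.25 (TDLN cisplatin). With the compared libraries alone 15 were called between MSM and SSM, and Ltbr in mDC against rDC in TDLN cisplatin became -0.0071.

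Within a cell type, deviations of same-numbered libraries correlated above 0.1 in 1 of 18 pairs in MSM, 2 in SSM and 0 in mDC and rDC. The values were -0.54 to 0.49 in MSM and -0.54 to 0.52 in SSM, with the 4 libraries included. Same-numbered libraries of different cell types were not compared. With 3 libraries per group these values cannot show whether the replicate numbers pair the samples. With the replicate block 11, 5, 12, 11, 6 and 26 were called in the 6 families in the order above, 5 calls were lost, and SSM of the LN gave 0.17 for Csf1 and 0.0080 for Tnfsf11 with cisplatin. DESeq2 turned Tnfrsf11a in the mDC node difference to -0.0105, and its size factors alone changed no call or direction of the 205 values. Without a filter on low counts the median of all genes moved by up to -0.43 (mDC against rDC, LN PBS), and 14 values changed sign, of which Csf1r in mDC of the TDLN with cisplatin had been called. For mDC these were Csf1r -0.0026 and Ltbr -0.074 (cisplatin, TDLN), Ltb 0.16 and Ltbr 0.057 (nodes, PBS), and Tnfrsf11a -0.25 and Ltbr -0.0003 (node difference). For rDC they were Ltbr -0.0005 (cisplatin, TDLN), Ltb -0.10 (cisplatin, LN), Tnfrsf11a -0.12 and Ltbr -0.10 (nodes, PBS) and Ltb 0.10 (node difference). Between mDC and rDC they were Ltbr -0.20 (LN PBS) and 0.15 (TDLN PBS), and Lta 0.0053 (TDLN cisplatin). Thinning ended 5 calls. With plain library totals the highest group was the same for 14 of 16 profiles. The causes of these changes were not tested. Il34, and Tnfsf11 in dendritic cells, rest on few counts, and intervals of counting error do not cover the spread between libraries.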
